A study of Mus musculus with 4 samples.

Results

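Tfcp2l1 regions at the ends of long non-coding RNA (lncRNA) genes that stand apart from protein-coding genes were examined in wild-type mouse embryonic stem cells. Binding was mapped by sequencing of immunoprecipitated chromatin (ChIP-seq), with a custom antibody against Tfcp2l1, in cells kept without further treatment in serum-free 2i medium with LIF (1000 units/mL), the GSK3 inhibitor CHIR99021 (3 µM) and the MEK inhibitor PD0325901 (1 µM). There were 2 repeats, each of 1 ChIP library and 1 input library (chromatin that was not immunoprecipitated), all of the same genotype and medium, so the only contrast is ChIP over input. The labels name no cell line and do not say whether the repeats were separate cultures, so differences between them may be technical. A region was included when its repeat 1 peak overlapped a repeat 2 peak by at least 1 bp on an autosome, and its repeat 1 summit lay within 1 kb of an end of a RefSeq lncRNA gene (GRCm38). The summit also had to lie in no protein-coding gene and more than 10 kb from every protein-coding gene end. This gave 810 regions out of 43258 shared autosomal peaks and 43851 shared peaks in all. None of the measured enrichment values was used to choose them beyond the authors' peak calls in both repeats.

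Tfcp2l1 is a DNA-binding transcription factor of the CP2 (Grainyhead-like) family that helps to sustain the naive state of mouse embryonic stem cells downstream of LIF and Stat3 and of GSK3 inhibition. CP2 proteins contact DNA as oligomers, and their sites carry paired short elements about a helical turn apart. LncRNA genes are transcribed and often spliced but not translated. Many are known from a catalogue entry only (Gm numbers, Rik clones), and some, such as the Platr transcripts, were named for expression that is tied to pluripotency.

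The strongest regions whose summit fell in a lncRNA promoter are shown first, because there the bound stretch can be read. The promoter sequences are those of RefSeq (GRCm38.p6), from 250 bases before to 50 bases after a listed gene start, 5′ to 3′ on the strand of the gene. Capitals mark matches, searched on both strands, to a plain form of the paired CP2 site, in which CCNG is followed by 6 free bases and a second CCNG (N is any base); overlapping matches run together. The promoters of Gm46560, Gm32441 and Gm32486 are the 3 of best rank with a match, and that of Dubr, a lncRNA studied in muscle progenitors of the mouse, is shown as the strongest without any.
Gm46560 (chr16:31509074-31509373, plus strand): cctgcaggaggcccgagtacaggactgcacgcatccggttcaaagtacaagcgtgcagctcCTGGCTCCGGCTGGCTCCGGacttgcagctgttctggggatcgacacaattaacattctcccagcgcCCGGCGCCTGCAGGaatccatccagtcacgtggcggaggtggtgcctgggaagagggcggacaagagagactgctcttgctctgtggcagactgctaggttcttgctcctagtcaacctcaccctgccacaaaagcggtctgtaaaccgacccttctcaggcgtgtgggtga
Gm32441 (chr19:56664577-56664876, minus strand): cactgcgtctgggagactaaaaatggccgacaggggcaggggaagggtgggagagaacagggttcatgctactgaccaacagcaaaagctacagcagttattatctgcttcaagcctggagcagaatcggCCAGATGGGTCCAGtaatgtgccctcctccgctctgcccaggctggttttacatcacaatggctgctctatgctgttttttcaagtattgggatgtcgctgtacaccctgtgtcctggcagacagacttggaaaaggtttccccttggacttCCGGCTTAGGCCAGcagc
Gm32486 (chr7:139296883-139297182, minus strand): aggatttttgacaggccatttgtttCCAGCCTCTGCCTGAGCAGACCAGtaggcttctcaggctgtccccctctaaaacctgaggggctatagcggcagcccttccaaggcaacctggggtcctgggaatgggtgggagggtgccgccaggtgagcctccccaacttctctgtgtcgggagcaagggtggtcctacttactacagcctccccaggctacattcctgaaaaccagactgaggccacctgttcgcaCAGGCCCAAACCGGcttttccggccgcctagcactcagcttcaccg
Dubr (chr16:50732724-50733023, minus strand): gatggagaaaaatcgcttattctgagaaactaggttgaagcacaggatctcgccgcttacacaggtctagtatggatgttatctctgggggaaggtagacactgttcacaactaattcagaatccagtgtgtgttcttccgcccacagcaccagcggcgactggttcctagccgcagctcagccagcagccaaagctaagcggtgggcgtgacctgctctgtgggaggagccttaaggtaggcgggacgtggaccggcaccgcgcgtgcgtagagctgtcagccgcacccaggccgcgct
The peak at Gm46560 had 120-fold enrichment over input in repeat 1 and 102-fold in repeat 2. That at Gm32441, whose nearest lncRNA gene end belongs to Gm52389, had 112-fold and 50.3-fold, that at Gm32486 77.8-fold and 51.02-fold, and that at Dubr 96.6-fold and 41.2-fold. High enrichment occurred at promoters with 3, 2 and 3 matches and at a promoter with 0.

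Shorter stretches around the match nearest the summit follow for the next 10 promoters with a match, in rank order of their regions.
5330429C05Rik (chr13:54913145-54913178, plus strand): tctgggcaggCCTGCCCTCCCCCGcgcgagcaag
Gm35190 (chr13:3767292-3767325, minus strand): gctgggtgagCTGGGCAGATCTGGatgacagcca
E030011O05Rik (chr9:96752844-96752877, minus strand): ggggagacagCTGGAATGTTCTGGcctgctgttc
BB557941 (chr2:57181833-57181866, minus strand): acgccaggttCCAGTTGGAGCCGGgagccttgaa
Gm32696 (chr4:125313663-125313696, minus strand): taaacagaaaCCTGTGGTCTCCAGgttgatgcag
Gm5493 (chr17:22740017-22740050, plus strand): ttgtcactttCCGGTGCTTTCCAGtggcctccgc
Gm15411 (chr5:149006810-149006843, minus strand): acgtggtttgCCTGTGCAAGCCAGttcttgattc
Gm40987 (chr13:65991077-65991110, minus strand): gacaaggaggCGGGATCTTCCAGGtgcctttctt
Gm32652 (chr1:164899657-164899690, minus strand): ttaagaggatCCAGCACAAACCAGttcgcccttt
Gm40716 (chr10:80475543-80475576, minus strand): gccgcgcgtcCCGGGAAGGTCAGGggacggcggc
The regions with summits in the promoters of BB557941 and Gm15411 are nearest 4930555B11Rik and Gm15408. The search itself fixed the outer elements as CCNG or, on the opposite strand, CNGG, so their likeness is no result. The letters between them, left free by the search, differ among these stretches. Enrichment at these regions lay between 26.1-fold and 70.5-fold (repeat 1) and between 16.5-fold and 48.7-fold (repeat 2). In 8 of the 10 the centre of the nearest match lay at lower coordinates than the summit, and at 5330429C05Rik and Gm32696 it lay at higher coordinates.

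The regions had a median of 15.9-fold enrichment over input in repeat 1 (quartiles 10.6 and 27.7) and 11.7-fold in repeat 2 (8.24 and 20.4). Over the 10665 other isolated shared peaks, those that meet the same limit to protein-coding genes but lie beyond 1 kb of a lncRNA end, the medians were 14.5-fold and 11.5-fold. Over all shared autosomal peaks they were 15.5-fold and 11.8-fold. The regions thus lay within the middle of the bound genome in strength. Their median tag count was 61 in repeat 1 and 60 in repeat 2, against 58 and 57 for all shared autosomal peaks, and their median peak length was 999 bp and 1013 bp, against 981 bp and 994 bp. Fold enrichment reached at least 10 in both repeats at 474 of the 810 regions (58.5%, exact 95% interval 55.0% to 61.9%), where the background is 55.1% of all shared autosomal peaks. The strongest 10% of the repeat 1 list, from 43.4-fold up, held 107 regions (13.2%) against a background of 13.2%, and that of the repeat 2 list, from 32.2-fold up, held 100 (12.3%) against 12.4%. These shares are near the background. All intervals here cover counting error only, and regions are not replicates, so no test was run over them.

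Enrichment at a region was usually alike in rank in both repeats and higher in repeat 1. It was higher in repeat 1 at 631 of 810 regions (77.9%), against 77.4% of all shared autosomal peaks, and the median ratio of repeat 1 to repeat 2 was 1.33, against 1.31. Across the 810 regions, which share the same 4 libraries, the repeats correlated with a Spearman's rho of 0.815 and, on the log2 scale, a Pearson's r of 0.861. Summits of the repeats lay within 100 bp of each other at 707 regions (87.3%), against 88.3% of all shared autosomal peaks, and more than 1 kb apart at 11. Peaks at isolated lncRNA ends were found again in the other repeat for 810 of 1030 in repeat 1 (78.6%, 76.0% to 81.1%, background 76.4% of autosomal peaks) and 808 of 933 in repeat 2 (86.6%, 84.2% to 88.7%, background 84.9%).

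**Figure D1:**
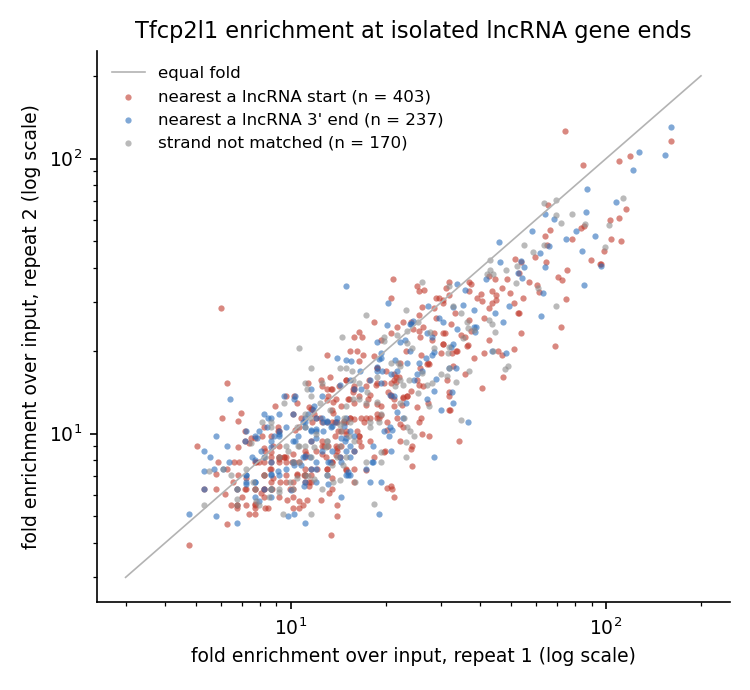
Fold enrichment over input at each of the 810 regions in repeat 1 (x axis) and repeat 2 (y axis), both on log scales, coloured by the lncRNA gene end nearest the summit; the grey line marks equal fold. Most points lie below the line. Regions at genes of unmatched strand reach 113-fold in repeat 1, against 161-fold at starts and at 3′ ends.

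The strongest region lay 0.94 kb inside the 3′ end of Gm39685 on chromosome 1 (156981841 to 156984436), 43.9 kb from Ralgps2, with 161-fold and 130-fold enrichment from 702 and 767 tags. Next was a region 0.193 kb inside the start of Gm39054 on chromosome 7 (98814904 to 98817099), with 161-fold and 116-fold. Its nearest protein-coding gene, 18.8 kb away, was Wnt11, which encodes a secreted Wnt ligand. The other regions of the 10 best ranked were at Gm35048, Gm31317, Gm46560, Gm40827, Gm27204, Gm41615, Gm33782 and Gm36735. Their values lay between 107-fold and 154-fold (repeat 1) and between 65.5-fold and 106-fold (repeat 2). By the nearest end, 5 of these 10 were at a 3′ end, 4 at a start and 1 at a gene of unmatched strand. All 10 nearest genes carry Gm numbers, as did those of 653 of the 810 regions (80.6%). No function is given for these 10 in the sources used here. At the other end, the 4 weakest regions, at LOC115489547, A730036I17Rik, Gm34554 and Gm32960, had values between 4.77-fold and 6.28-fold (repeat 1) and between 3.92-fold and 5.10-fold (repeat 2), from 22 to 64 tags.

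Regions at lncRNA genes with a symbol of their own (any that is not a plain Gm number, a Rik clone or a LOC number, so that Gm1604a counts) did not reach the 10 best ranks. They were only 44 of the 810 regions (5.43%), so their absence from 10 ranks is no result about them. Their median was 18.04-fold in repeat 1 (from 6.03-fold to 96.6-fold) and 12.3-fold in repeat 2 (from 5.10-fold to 77.7-fold). Dubr was the strongest of them in repeat 1, with a summit 0.164 kb from the start on chromosome 16 (50731655 to 50733483) and 397 and 296 tags. BB283400 was the strongest in repeat 2 (86.9-fold and 77.7-fold). A region 0.347 kb outside the start of Snhg5, a host gene of small nucleolar RNAs, had 37.4-fold and 23.6-fold. At the start of Morrbid, known in the mouse for control of Bcl2l11 in short-lived myeloid cells, enrichment was 38.2-fold and 18.8-fold, and at the start of Lexis1, a lncRNA of cholesterol metabolism in mouse liver, it was 33.8-fold and 20.01-fold. Miat, a nuclear lncRNA best known in neurons, had 25.6-fold and 18.1-fold near its 3′ end. The others of the 15 best ranked, at Gm1604a, Lincred2, Mm2pr and Celrr, had values between 24.2-fold and 47.2-fold (repeat 1) and between 14.2-fold and 42.1-fold (repeat 2). Repeat 1 was the higher in all 15, by the least at Gm1604a (46.0-fold and 42.1-fold).

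**Figure D2:**
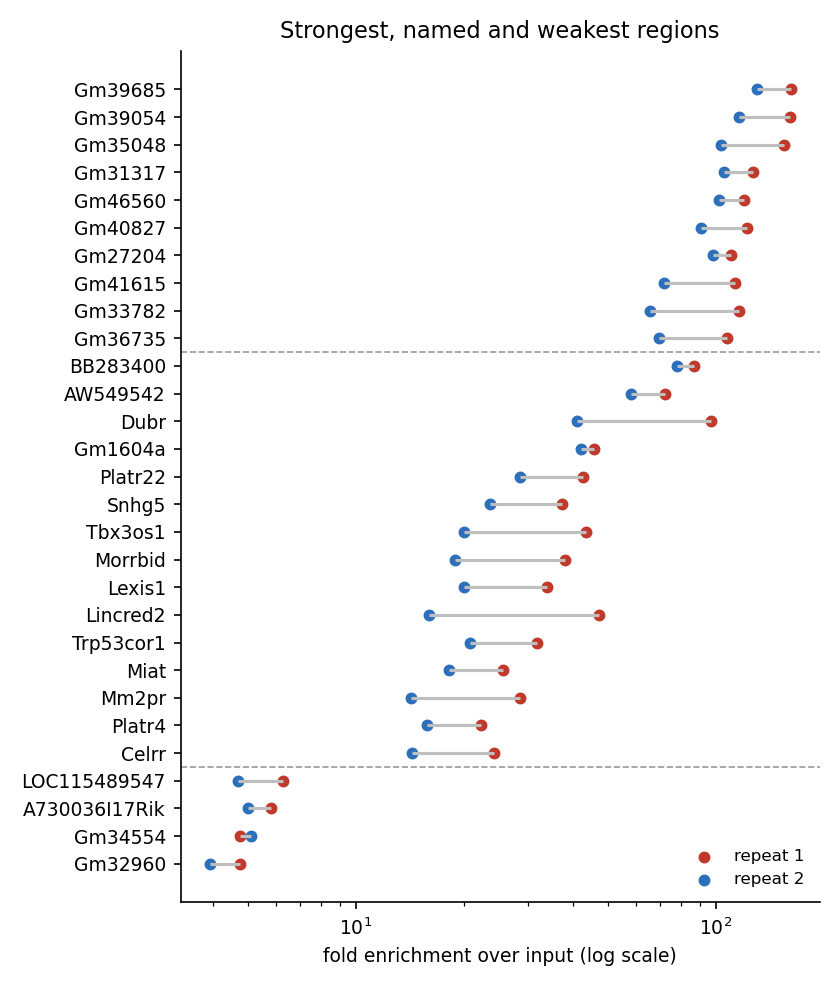
Fold enrichment over input (x axis, log scale) in repeat 1 (red) and repeat 2 (blue) for the 10 best-ranked regions (top), the 15 best-ranked regions at lncRNA genes with their own symbol (middle) and the 4 weakest regions (bottom), named by the nearest lncRNA gene. Repeat 1 is the higher value in all of them but Gm34554, where it was 4.77-fold in repeat 1 and 5.10-fold in repeat 2.

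Of the Platr genes, transcripts named for their link to pluripotency, 14 had an isolated end and 4 had a region within 1 kb of it (28.6%, 8.39% to 58.1%), where the background is 11.0% of isolated lncRNA genes. Among isolated lncRNA genes with a symbol of their own, as these have, the share was 20.9%. Both shares lie within the interval. Platr22 had the strongest, 0.264 kb inside its start, with 42.7-fold and 28.6-fold from 175 and 198 tags. A second region 0.893 kb upstream of Platr22 had 6.03-fold in repeat 1 and overlaps the same peak of repeat 2, so its 28.6-fold there is no separate value. Platr4 had 22.2-fold and 15.7-fold, Platr10 21.3-fold and 15.7-fold, and Platr14 19.8-fold and 10.2-fold. The other 10 isolated Platr genes had no region. The intervals are wide, and the list was chosen with earlier results of these data known.

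Among 22 isolated lncRNA genes listed for roles in stem cells or development, 7 had a region (31.8%, 13.9% to 54.9%, against 11.0% of all isolated lncRNA genes). All 22 have a symbol of their own, and the share over isolated genes of that kind, 20.9%, lies within the interval. Miat, given above, was among the 7. Trp53cor1, the p53-induced lncRNA also called lincRNA-p21, had regions at both ends on chromosome 17, with 31.8-fold and 20.7-fold on the side of Cdkn1a (12.6 kb from it) and 34.8-fold and 11.2-fold on the side of Srsf3 (13.6 kb). Lncenc1, a lncRNA of naive embryonic stem cells, had 9.66-fold and 13.7-fold 0.252 kb from its start, so that repeat 2 was the higher. Eprn (Ephemeron), which acts in the exit from naive pluripotency in the mouse, had 12.1-fold and 8.63-fold at its start. Malat1, an abundant nuclear lncRNA, had 14.98-fold and 9.64-fold near its 3′ end. Bvht, a lncRNA of cardiac fate, had 17.9-fold and 10.6-fold, and Pantr2, a neighbour of the neural factor gene Pou3f3, had 10.2-fold and 5.89-fold. The 15 without a region included Neat1, Norad, Sox2ot, Fendrr and Pvt1. Tunar, a lncRNA of pluripotency and neural fate that is not among the 22, had a weak region, nearest Tcl1, of 7.04-fold and 5.89-fold.

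Of 5 isolated lncRNA genes listed as imprinted, Mirg, in the imprinted Dlk1-Dio3 locus, had a region (18.2-fold and 9.03-fold), and H19, Meg3, Rian and Nctc1 had none. Zim2, which was not in that list, had a region 84 bp from its start (17.1-fold and 10.99-fold). Snhg5 and Snhg20 had a region among 4 isolated Snhg genes, with 10.2-fold and 5.10-fold at Snhg20. None of the 11 isolated genes whose symbol marks a microRNA host, such as Mir17hg, had a region (0.0%, interval 0.0% to 28.5%). By position, 32 isolated lncRNA genes enclosed a microRNA hairpin on their own strand, and 6 of them had a region (18.8%, 7.21% to 36.4%). The share over all isolated lncRNA genes, 11.0%, lies within the exact intervals of all 4 of these counts (imprinted, Snhg and both microRNA counts). C130071C03Rik, which encloses Mir9-2, had 26.5-fold and 33.4-fold, and Dleu2, which encloses Mir16-1, had 11.1-fold and 7.06-fold 43 bp from its start.

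The protein-coding gene nearest a region was a listed pluripotency gene for 16 regions, which fell at 7 of the 52 listed genes. These 16 were 1.98% of the regions (1.13% to 3.19%), against 2.35% of the other isolated shared peaks, so the share was near that background. The 7 were 14% of the 50 listed genes on autosomes (5.82% to 26.7%), against 3.16% of all autosomal protein-coding genes. Only a gene beside sequence more than 10 kb from every protein-coding gene can be nearest a region. The shares of genes were not matched for this, so no excess at listed genes can be read from them. Tbx3, a T-box factor gene of the naive network, had AW549542 at 90.5 kb (72.0-fold and 58.1-fold), Tbx3os1 at 59.4 kb (43.5-fold and 20-fold) and Gm31190 at 370 kb (33.3-fold and 15.4-fold). Sox2, a core pluripotency factor gene, had 3 regions, the strongest at the 3′ end of Gm3143, 48.1 kb away (32.2-fold and 20.6-fold). The others were the 3 regions nearest Zfp281, 2 of them at Platr22, 3 near Tfap2c, 2 near Mycn, and 1 each near Otx2 and Tcl1. Nearness on the chromosome does not show which gene a region acts on. Of all regions, 214 (26.4%) lay 10 to 20 kb from the nearest protein-coding gene end and 287 (35.4%) lay 20 to 50 kb. Another 162 (20%) lay 50 to 100 kb and 147 (18.1%) lay beyond 100 kb. Of the other isolated shared peaks, 24.4%, 31.9%, 18.8% and 24.97% lay at these distances.

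Shared summits were denser at isolated lncRNA ends than in the rest of the isolated territory. There were 33.2 summits per Mb within 1 kb of an end (810 over 24.4 Mb), against 8.91 per Mb in the other 1197 Mb, a ratio of 3.73 (95% interval 3.47 to 4.0). The density fell with distance. It was 44.7 per Mb within 0.25 kb, 33.4 from 0.25 to 0.5 kb, 27.1 from 0.5 to 1 kb, 23.1 from 1 to 2 kb, 21.1 from 2 to 5 kb, 17.9 from 5 to 10 kb and 8.48 from 50 to 100 kb. The surroundings of lncRNA genes out to 50 kb were therefore denser in summits than the territory as a whole. With starts and 3′ ends pooled, the ends stood above these surroundings. In genes of 10 kb or more, where starts and 3′ ends were counted apart (below), only the starts clearly did so. Isolated pseudogene ends more than 10 kb from every lncRNA gene had 9.79 per Mb within 1 kb (141 summits, ratio 1.10, 0.932 to 1.30). This ratio is not matched to that of lncRNA ends. Its base is the same 8.91 per Mb, which includes the denser surroundings of lncRNA genes, while the pseudogene windows leave out sequence within 10 kb of them. A ratio to territory without these surroundings was not computed, and the interval covers the counting error of the 141 summits only. Territory includes sequence to which short tags cannot be mapped, and chromatin state and transcription were not measured.

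**Figure D3:**
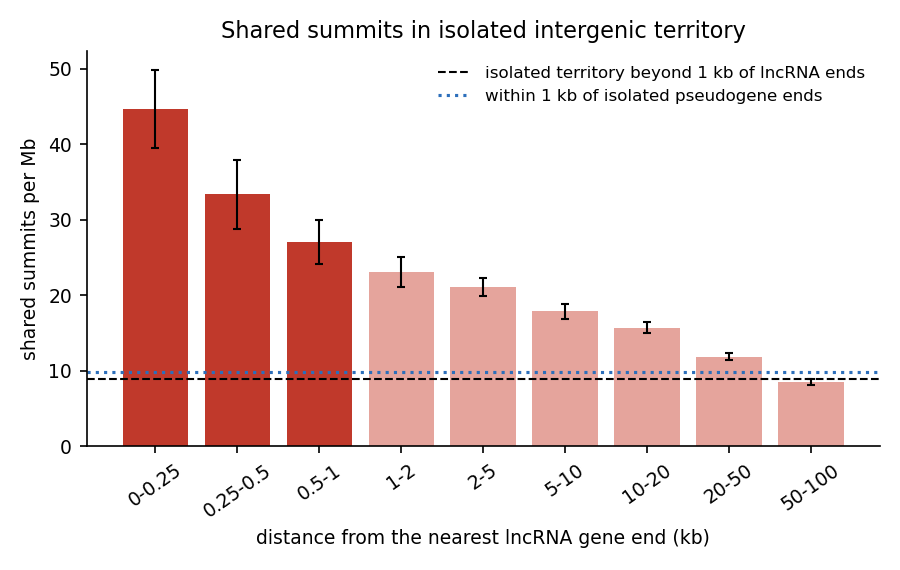
Shared summits per Mb of isolated autosomal territory (y axis) by distance from the nearest lncRNA gene end in kb (x axis), with approximate 95% Poisson error bars. The dashed line is the density beyond 1 kb of lncRNA ends. The dotted line is that within 1 kb of isolated pseudogene ends more than 10 kb from every lncRNA gene. The bars fall from left to right, from 44.7 per Mb within 0.25 kb to 8.48 per Mb at 50 to 100 kb.

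Summits gathered at the starts of lncRNA genes and were fewer at their 3′ ends. The strand of the nearest gene was given by the promoter table for 640 regions, and 403 of these (63.0%, 59.1% to 66.7%) were nearest the start and 237 (37.0%) nearest the 3′ end. Of 4723 isolated starts, 428 had a region within 1 kb (9.06%, 8.26% to 9.92%), and of 4956 isolated 3′ ends, 246 had one (4.96%, 4.38% to 5.61%). In genes of 10 kb or more with 5 kb of isolated territory on either side of the end, the shares were 174 of 2312 starts (7.53%, 6.48% to 8.68%) and 95 of 2476 3′ ends (3.84%, 3.12% to 4.67%). Around these starts there were 2.34 summits per 100 ends in the 0.5 kb before and 2.77 in the 0.5 kb after, and 0.69 to 1.47 in the bins beyond 1 kb. Around the 3′ ends the bins within 1 kb held 0.85 to 1.29 and those beyond held 0.73 to 1.25, so no clear rise was seen there. Among protein-coding genes, 25.5% of starts and 7.46% of 3′ ends had a shared summit within 1 kb.

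**Figure D4:**
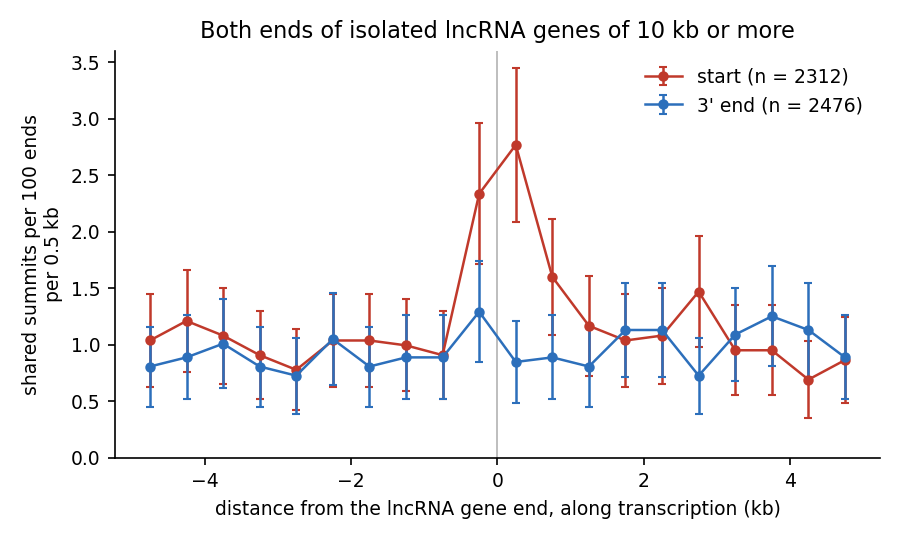
Shared summits per 100 gene ends in bins of 0.5 kb (y axis) by distance from the start (red) or the 3′ end (blue) of isolated lncRNA genes of 10 kb or more (x axis, kb, positive in the direction of transcription), with approximate 95% Poisson error bars. The red line reaches 2.77 just after the start, and the blue line stays between 0.73 and 1.29.

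Starts and 3′ ends had regions of like strength. The 403 regions nearest a start had medians of 15.9-fold and 11.9-fold, the 237 nearest a 3′ end 14.98-fold and 11.2-fold. Summits lay inside the nearest gene at 456 regions (56.3%). Starts of lncRNA genes on opposite strands lay within 1 kb of the summit at 18 regions (2.22%), Gm33782 and Gm52389 among them. Of the summits, 123 (15.2%) lay within 100 bp of the lncRNA end, 158 between 100 and 250 bp, 206 between 250 and 500 bp and 323 (39.9%) between 500 bp and 1 kb.

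The share of isolated lncRNA genes with a region differed by kind of gene. In all, 782 of 7112 had one (background 11.0%, 10.3% to 11.7%). It was 41 of 196 genes with a symbol of their own (20.9%, 15.4% to 27.3%), 10.9% of Gm numbers, 10.1% of Rik clones and 6.99% of LOC numbers. Genes with a curated transcript had 12.7% (11.2% to 14.3%) and those with predicted transcripts only 10.4% (9.63% to 11.3%). The share was 14.2% (12.6% to 16.0%) for genes of 1 to 5 kb, 11.7% for 5 to 20 kb and 7.43% (6.32% to 8.67%) for 20 to 100 kb. By chromosome it ran from 7.97% on 8 to 18.2% on 17 (48 of 264, 13.7% to 23.4%).

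Most regions were the only one at their gene. The 810 regions had 755 nearest genes, of which 702 had 1 region, 51 had 2 and 2 had 3. Another shared summit lay within 10 kb of 466 regions (57.5%, 54.0% to 61.0%), against 50.3% of the other isolated shared peaks (49.3% to 51.2%) and 59.3% of all shared autosomal peaks. Trp53cor1 had the most shared summits within 10 kb of its ends (10), then Gm36199 with 9, and 2410018L13Rik, Dleu2, Gm31515 and Gm41955 with 8 each. The region at Gm31515 had 74.4-fold and 254 tags in repeat 1 and 126-fold and 1218 tags in repeat 2, where the peak was 6044 bp long with its summit 3123 bp away, so these values do not describe the same point. The 3 regions at 2410018L13Rik had 38.2-fold, 19.3-fold and 5.31-fold in repeat 1 and 28.3-fold, 19.6-fold and 6.28-fold in repeat 2.

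The few peaks closest to the limits of the definition differed in strength. The strongest of them lay just inside the 1 kb limit and just within the 10 kb limit. Just inside 1 kb of a lncRNA end, at 998 bp, lay a peak at Gm33168 (22.7-fold and 15-fold) and a peak at Gm35055 (85.3-fold and 56.9-fold). Just outside, at 1002 and 1003 bp, lay peaks at Gm8075 (12.6-fold and 6.28-fold) and Gm52715 (16.9-fold and 15.7-fold). Just beyond 10 kb of a protein-coding gene end lay peaks at Gm30684 (10.01 kb, 12.6-fold and 11.4-fold) and Gm43568 (10.07 kb, 7.25-fold and 5.49-fold), and just within it peaks at Gm31251 (9.85 kb, 19.3-fold and 16.8-fold) and Gm35515 (9.97 kb, 70.2-fold and 51.4-fold).

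Promoters that held the summit of a region carried the CP2-like letters more often than other lncRNA promoters. A summit lay inside 124 lncRNA promoter windows of 113 genes, some with more than 1 listed start. Of these windows, 49 held CCNG and CCNG with 6 free bases between (39.5%, 30.9% to 48.7%), against 712 of 5302 windows (13.4%, 12.5% to 14.4%) at isolated lncRNA starts with no shared summit within 1 kb. The background is 29.6% of all promoters, 20.1% of all lncRNA promoters, and 55.6% of protein-coding promoters with a shared summit. With 5 or 7 free bases in place of 6, the letters stood in 29.0% and 28.2% of the windows with a summit and in 14.2% and 14.6% of those without. Base composition differed too. The median GC content was 52.7% in windows with a summit and 46.3% in windows without, and the part of composition in the motif share was not tested. The median ratio of observed to expected CpG was 0.317 and 0.199, against 0.732 in protein-coding promoters with a shared summit. Regions with a match (n = 45) had medians of 21.2-fold and 13.3-fold, and those without (n = 64) 15-fold and 11.0-fold.

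The match lay to one side of the deposited summit. At 37 of the 49 matched windows the centre of the nearest match was at lower coordinates than the summit and at 12 at higher ones, with a median of -71.5 bp (motif minus summit). Windows of 50 bp on either side of a point 80 bp below the summit held a match at 25 of 71 regions for which the sequence was at hand (35.2%, 24.2% to 47.5%), and those 80 bp above it at 6 of 67 (8.96%, 3.36% to 18.5%). With summits of repeat 2 the shares were 26 of 78 (33.3%) and 9 of 66 (13.6%). With 5 free bases they were 14.1% below and 10.3% above in repeat 1, and 11.25% and 11.9% in repeat 2. With 7 free bases they were 9 of 71 below (12.7%, 5.96% to 22.7%) and 4 of 67 above (5.97%, 1.65% to 14.6%) in repeat 1. In repeat 2 they were 13 of 78 (16.7%, 9.18% to 26.8%) and 7 of 66 (10.6%, 4.37% to 20.6%). The shares with 7 free bases were thus also higher below the summit, but from few matches and with overlapping intervals. The distance of 80 bp was chosen after the values were seen.

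**Figure D5:**
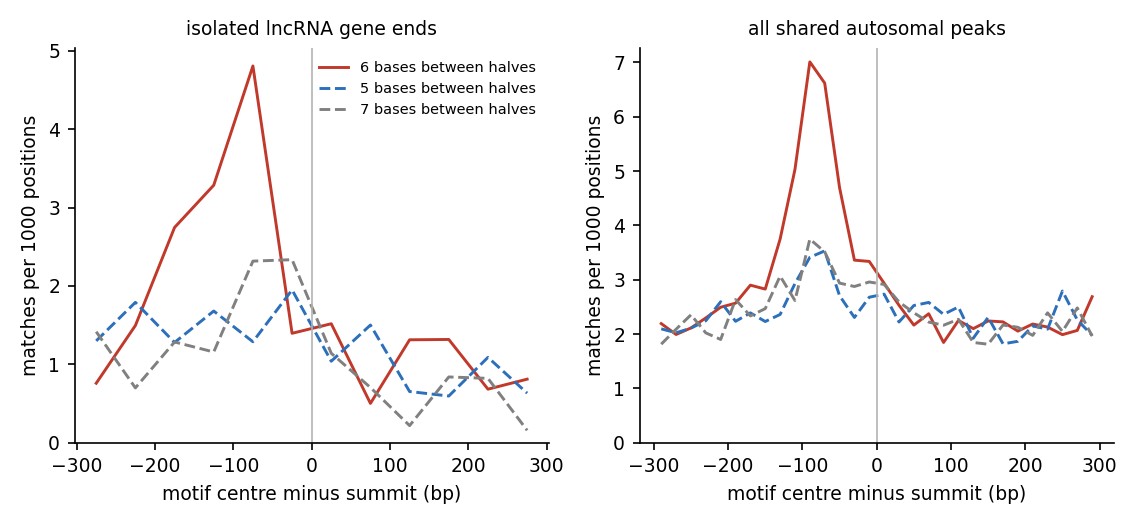
Matches to CCNG and CCNG with 6 free bases between (red), and to the same letters with 5 (blue) or 7 (grey) free bases, per 1000 promoter positions searched (y axis). The x axis is the distance of the match centre from the summit in genome coordinates (bp). Only summits with promoter sequence at hand are covered, with both repeats combined. On the left (bins of 50 bp) these are 253 (repeat 1) and 252 (repeat 2) of the 810 regions. On the right (bins of 20 bp) they are 3848 and 3781 of all 43258 shared autosomal peaks. The red line has its maximum below the summit in both panels, between -100 and -50 bp on the left, and the other lines show no maximum of that height.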

How the data were processed

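Per the file headers, the authors called peaks with MACS 1.4.1 for each repeat's ChIP library against its input (p threshold 1e-05, tag size 35 bp, fragment length 200 bp, at most 2 duplicate tags per position, smaller library scaled to the larger, local background over 1000 and 10000 bp). Repeats were not pooled. Tags after duplicate filtering numbered 19353473 (ChIP) and 18446758 (input) in repeat 1 and 22555373 and 23825930 in repeat 2, per the file headers. CASAVA 1.8.2 stands in the submitters' processing notes; no source used here names an aligner. In the deposited lists, tags are raw counts per peak, so weak peaks rest on few tags. Their score is -log10(p) multiplied by 10, and their fold is the authors' ratio of ChIP signal at the summit over a local background estimate. The deposited FDR, in percent, was not used.

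The notes name mm9, but peaks on chromosome Y reach 90.8 Mb, and 14.0% of shared autosomal summits lay within 1 kb of a protein-coding gene end of GRCm38, against 5.33% after a shift of 100 kb. GRCm38.p6 RefSeq tables (genes, promoters) were therefore used. Isolated territory ran from the first to the last annotated gene of each autosome. A region's partner was the repeat 2 peak with the largest overlap. Rank was the mean over repeats of the rank of fold enrichment among the regions. Percentages have exact (Clopper-Pearson) intervals, and density ratios have intervals symmetric on a log scale. The code was checked on simulated peaks with known positions, in Python 3.11.15 with pandas 2.3.3, numpy 2.4.6 and scipy 1.17.1. No test was run over regions, which are not replicates.

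The regions and all lists were chosen with earlier results of these data known. Regions named were the 10 best and 4 worst by rank, those at lncRNA genes in the lists or with their own symbol (the 15 best), those at the 5 genes with the most summits, those at the limits and those nearest a listed pluripotency gene; other members of the lists beyond those 15, Gm41955, genes named for an enclosed microRNA and the rule for the sequences shown were added after values were seen. Alternatives were other overlaps, thresholds, distances, summits and motifs, and each repeat alone.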

Additional observations from a re-analysis of the deposited data

How the results depend on the processing

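No paired analysis was possible because each input library was used only within its own repeat's peak calling, so there are no 2 groups to pair. Of 120 values under alternatives, 89 stayed within their interval (counts within 1.5 times) and 31 moved; the density ratio stayed above 3 in every alternative. With summits within 100 bp of each other, the median fold in repeat 1 was 17.4 and 9.76% of isolated genes had a region. With at least 10-fold enrichment in both repeats there were 474 regions, a density ratio of 4.02, medians of 24.48-fold and 18.1-fold, 6.59% of genes and 22.6% of regions in the strongest 10% of the repeat 1 list. With scores of at least 100 the ratio was 4.02, the medians 21.7-fold and 15.7-fold, the share of genes 7.75% and the share in the strongest 10% 18.9%. A limit of 0.5 kb gave 487 regions, a ratio of 4.30, 6.85% of genes and 68.5% of regions nearest a start, and a limit of 2 kb gave 1320, 3.28, 16.4% and 58.5%. With 20 kb to protein-coding ends 9.92% of genes had a region. Each repeat alone, with its peaks shared or not, gave 12.6% to 13.7% of genes; the median was 13.0-fold in repeat 1 alone and 10.6-fold in repeat 2 alone, and 10.4% of repeat 1 regions were in the strongest 10%. The motif share was 8.06% for a pair of CCAG, 88.7% for a pair of CNNG (both with 6 free bases between) and 29.2% over all lncRNA promoters whose start lay within 1 kb of a summit, the last chosen after seeing the data. Ranking by tags kept 6 of the 10 strongest regions. Values moved with summits shifted 80 bp numbered 0. Motif windows of 100 and 250 bp around every summit were not run, since no genome sequence was used here.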

Other observations

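The one-sided position of the motif was not particular to lncRNA ends. Over all shared autosomal peaks whose sequence was at hand, matches to CCNG and CCNG with 6 free bases between were densest 60 to 80 bp below the summit of repeat 1, with 7.07 per 1000 positions, against 2.06 at 60 to 80 bp above it. For summits of repeat 2 the maximum was 7.05, at 80 to 100 bp below, against 2.02 at the same distance above. Windows around the point 80 bp below the summit held a match at 559 of 1355 peaks in repeat 1 (41.3%, 38.6% to 43.9%), and those 80 bp above it at 174 of 1073 (16.2%, 14.1% to 18.6%). With 5 or 7 free bases the maximum also lay below the summit, at 3.79 and 3.64 per 1000 positions in repeat 1. The direction is that of genome coordinates and not of any gene, and the cause was not tested. Positions of deposited summits should be read with this distance in mind.

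Isolated microRNA gene ends away from lncRNA genes had 26.8 shared summits per Mb within 1 kb, from 5 summits only (ratio 3.00, 1.25 to 7.22), and isolated snRNA and snoRNA gene ends had 10.8 per Mb from 17 summits (ratio 1.21, 0.753 to 1.95). These ratios and intervals carry the limits given above for pseudogene ends. Peaks at isolated lncRNA ends without a partner in the other repeat numbered 220 of 1030 in repeat 1 and 125 of 933 in repeat 2. Over all autosomal peaks they numbered 13383 of 56641 and 7704 of 50898. The shares found again at lncRNA ends, 78.6% and 86.6%, were near the backgrounds of 76.4% and 84.9%.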
